A study of Macaca mulatta with 161 samples.

Results

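The IGF-binding proteins IGFBP1 to IGFBP7 and the receptor IGF1R were followed as 8 named genes out of the 16049 gene rows measured in single inner cells of rhesus monkey (Macaca mulatta) blastocysts. The 8 genes were chosen by name, with their earlier results by stage and against NANOG and SOX17 in view, so that their levels are a description and no test supports them. All 8 have a row, 6 were above 0 in at least 1 cell, and IGFBP1 and IGFBP7 were listed at 0 in all 161 cells, as were 1583 genes in all. A mean FPKM of 1 over all cells was reached by 5 members (IGFBP2, IGFBP3, IGFBP4, IGFBP6 and IGF1R), and not by IGFBP5.

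Insulin-like growth factors (IGF1 and IGF2) act through the receptor tyrosine kinase IGF1R and feed the PI3K, AKT and TOR pathway. The IGF-binding proteins are secreted, bind these ligands with high affinity, and either hold them away from the receptor or carry and release them, often after cleavage by proteases. In the blastocyst, NANOG marks the epiblast, which gives rise to the embryo proper, and SOX17 marks the primitive endoderm (hypoblast), which gives rise to the yolk sac.

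The cells came from embryos fertilised and cultured in serum-containing medium after ovarian stimulation of the mothers, and no embryo was treated or genetically modified. Inner cells were those left unstained when the outside of the embryo was labelled with the dye PKH26, and each was sequenced as its own library. There were 44 cells of early blastocysts (about embryonic day 5), 39 of middle blastocysts (about day 5.5), 52 of late blastocysts (about day 6, "later" in the labels) and 26 of hatching blastocysts (about day 7). Which embryo a cell came from is not in the labels, so a stage counts as 1 sample, cells are not replicates, and no test was made. Values are FPKM, fragments per kilobase of transcript adjusted for each library's mapped fragments, so that levels of different genes are per length. Differences are between means over cells of log2(FPKM + 1), which understate the difference of low genes, and a gene is called higher or lower when they differ by at least 1 log2 unit.

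The read numbers recovered from the FPKM steps had a median of 11.6 M (mega) in a cell, ranging from 3.05 to 28.8 M, and the stage medians lay between 10.7 and 12.7 M. Late and hatching cells were divided by their own levels: a cell with more SOX17 than NANOG on the log2(FPKM + 1) scale is on the SOX17 side, and every other cell on the NANOG side. This put 33 late cells on the NANOG side and 19 on the SOX17 side, and 19 hatching cells on the NANOG side and 7 on the SOX17 side, while all early and middle cells were on the NANOG side. A side is a range of levels and not a cell type, and 3 late cells lay within 1 log2 unit of the dividing line. On the NANOG side of the hatching stage, 12 of 12 epiblast markers and 1 of 11 primitive endoderm markers with a row (APOA1) reached FPKM 1 in 50% of cells, against 6 of 12 and 11 of 11 on the SOX17 side. In late cells the same counts were 11 of 12 and 2 of 11 on the NANOG side, and 4 of 12 and 11 of 11 on the SOX17 side. Of 12 trophectoderm markers, 5 to 7 did so in every group, among them the keratins KRT8 and KRT18, and ELF5 was at 0 throughout. The epiblast list includes NANOG and the primitive endoderm list SOX17. These genes set the sides, so their part in the counts is not independent of the division.

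At hatching, 4 of these genes separated the NANOG side from the SOX17 side by 5.08 to 7.64 log2 units. IGFBP2, IGFBP4 and IGFBP6 did not overlap between the sides, and IGFBP3 was higher in 18 of 19 NANOG-side cells than in any SOX17-side cell. Of all 9781 genes with a mean FPKM of at least 1, 2% (196 genes) had every NANOG-side cell above every SOX17-side cell, and 3.32% had at most 1 NANOG-side cell that was not. IGF1R had the same direction, and the ligand gene IGF1 the opposite one. Before the late stage IGFBP4 reached FPKM 1 in no cell, IGFBP3 in 2 cells and IGFBP2 in 42 of 83 cells, whereas IGFBP6 did so in every cell of every stage.

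**Figure D1:**
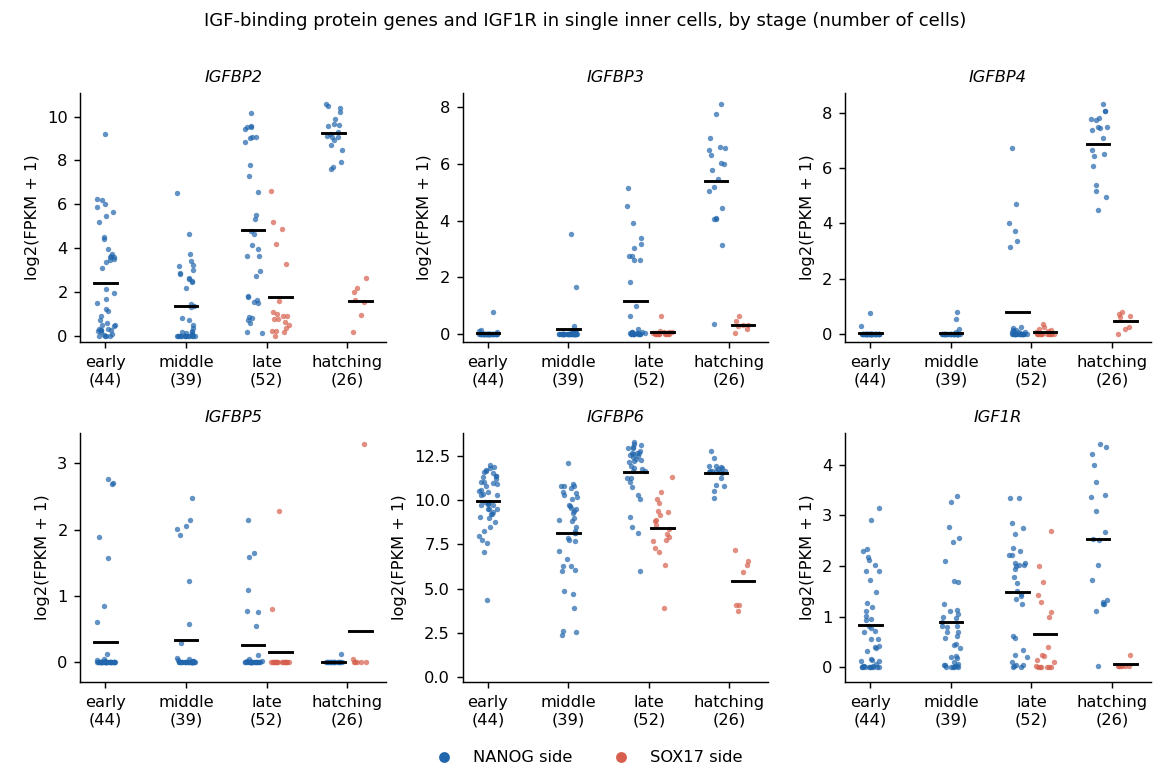
Level of each detected member in every cell, as log2(FPKM + 1) on the vertical axis, by stage on the horizontal axis. Each point is 1 cell, blue on the NANOG side and red on the SOX17 side, and black bars are means over cells. In hatching cells the blue and red points of IGFBP2, IGFBP4 and IGFBP6 do not overlap, with blue above red, as in 2% of all 9781 genes.

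IGFBP6, which binds IGF2 in preference to IGF1, was by far the most abundant member per length. Its lowest, median and highest FPKM were 19.7, 1116 and 4032 in early cells, 4.19, 453 and 4441 in middle cells, 14.04, 2274 and 9988 in late cells, and 12.2, 3044 and 7033 in hatching cells. All 161 cells were above FPKM 1. It was the highest of the IGFBP genes in 43 of 44 early, 36 of 39 middle, 51 of 52 late and 26 of 26 hatching cells. Its median share of the summed FPKM of the 7 IGFBP genes was 99.7% in early, 99.6% in middle, 99.5% in late and 80.3% in hatching cells. On the late NANOG side its median level was the 6th highest of all genes in the table, and IGFBP6 alone made up a median 0.733% of a cell's summed FPKM.

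The IGFBP6 level was lower in middle than in early cells and higher again in late cells. Its mean log2 level, with the SD between cells, was 9.97 ± 1.53 in early, 8.14 ± 2.53 in middle, 10.47 ± 2.26 in late and 9.90 ± 2.91 in hatching cells. The difference was -1.83 for middle minus early and 2.33 for late minus middle. Below FPKM 100 were 10 of the 39 middle cells, against 1 of 44 early cells. These middle cells did not have less NANOG: its mean log2 level was 7.81 in them and 7.54 in the other middle cells. Within the middle stage, the 27 cells numbered up to 29 in their titles had an IGFBP6 mean of 7.72 and the 12 numbered 32 to 55 had 9.07. What title numbers stand for is not given in the sources used here, and their part in the result was not tested.

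The IGFBP6 mean of hatching cells, close to that of early cells, joins a high and a low group. At hatching its FPKM ran from 1114 to 7033 with a median of 3184 in the 19 NANOG-side cells. In the 7 SOX17-side cells it was 92.1, 80.6, 147, 60.6, 12.2, 15.6 and 16.0. Every NANOG-side cell was thus above every SOX17-side cell, and the means differed by 6.14. In late cells IGFBP6 ran from 62.1 to 9988 (median 4802) on the NANOG side and from 14.04 to 2511 (median 388) on the SOX17 side, with overlap and a difference of 3.19. Between hatching and late cells the NANOG side differed by -0.08 and the SOX17 side by -3.03, the only called member on the SOX17 side. Over all 9781 genes with a mean FPKM of at least 1, 29.8% were called lower for hatching minus late on the SOX17 side and 11.3% higher, where 1 and 0 of the 8 members were. The median of all genes there was -0.40 (-0.10 with median-of-ratios scaling).

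IGFBP2, a carrier of both ligands that also holds an integrin-binding motif, varied widely between cells. In the early stage its FPKM ran from 0 to 591 with a median of 2.03. It ran from 0 to 91.4 (median 0.390) in middle cells, from 0 to 1135 (median 6.16) in late cells and from 0.135 to 1510 (median 509.8) in hatching cells. It reached FPKM 1 in 25 of 44 early, 17 of 39 middle, 35 of 52 late and 24 of 26 hatching cells. The ranges of neighbouring stages overlapped, and 9 of 26 hatching cells exceeded every early cell.

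At hatching the IGFBP2 level fell into 2 separate ranges. It ran from 193 to 1510 FPKM (median 582) in NANOG-side cells and from 0.135 to 5.28 FPKM (median 2.14) in SOX17-side cells. The difference of 7.64 between the sides was the largest positive one among the 9781 genes, and the mean FPKM on the SOX17 side was 0.34% of that on the NANOG side. In late cells IGFBP2 was spread over the whole scale on the NANOG side, from 0.105 to 1135 FPKM (median 16.8), with 11 of 33 cells above the SOX17-side maximum of 96.9. SOX17-side late cells had a median of 0.856, and the difference was 3.06. The NANOG-side spread went with title numbers. The 12 cells numbered up to 22 had a mean log2 level of 3.48 (SD 2.24), and the 21 above 22 had 5.57 (SD 3.80). Of the latter, those numbered 24 to 45 were at 7.79 log2 units or more except late cell 41 (5.32). Those numbered 47 to 61 were at 4.63 or less. The part of the numbering was not tested.

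Within the late SOX17 side IGFBP2 was not uniformly low. Of its 19 cells, 5 were at 96.9, 35.4, 28.2, 16.99 and 8.61 FPKM, and all other cells were at 2.02 FPKM or less. These 5 cells stood 1st, 8th, 2nd, 5th and 3rd of the 19 in SOX17 level and held at most 1.88 FPKM of NANOG. Over the 19 cells, the correlation of IGFBP2 with SOX17 was r = 0.65 and rho = 0.54, and r = 0.54 without the 2 cells farthest from the median SOX17. The 5 cells were all among the 11 numbered above 22, where the mean log2 levels were 2.53 for IGFBP2 and 6.98 for SOX17. In the 8 numbered up to 22 they were 0.67 and 5.39. Within these ranges the correlation was r = 0.62 (rho = 0.59) above 22 and r = 0.08 (rho = 0.14) up to 22. The 5 cells are numbered 23, 25, 33, 36 and 38. The cells numbered 44, 51, 52 and 79 were at 0.91 log2 units of IGFBP2 or less, as were those numbered 26 and 27. A correlation within the range above 22 thus does not remove the numbering, and the part of the numbering was not tested. On the late NANOG side the correlation of IGFBP2 with SOX17 had the other sign, with r = -0.51, rho = -0.38 and r = -0.45 without 2 cells (n = 33). No hatching SOX17-side cell had more than 5.28 FPKM of IGFBP2, although all 7 had SOX17 at 106 FPKM or more. The correlations describe cells that may share embryos.

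The early IGFBP2 values rest on a subset of cells. The 25 early cells numbered 1 to 28 had a mean log2 level of 3.68 (20 at FPKM 1 or more), and the 19 numbered 29 to 48 had 0.73 (5 at FPKM 1 or more). IGFBP2 also ran against depth among early cells, with r = -0.62 and rho = -0.59 against recovered reads (r = -0.67 without 2 cells, n = 44). Middle minus early was -1.05 over all cells, -2.32 against the early cells numbered 1 to 28 and 0.63 against those numbered 29 to 48, so that its direction depended on which early cells were used. The part of depth and of the numbering in it was not tested.

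A single early cell, number 9, stood apart. It had the highest IGFBP2 of the 44 (591 FPKM, from 5335 reads, against at most 74.6 in the others) and the lowest IGFBP6 (19.7 FPKM, against at least 134). It also had the lowest NANOG (6.45 FPKM), the lowest POU5F1 (82.2 FPKM, against at least 627), the lowest summed trophectoderm markers (125 FPKM, against at least 1518) and the fewest recovered reads (6.19 M). Its SOX17 was 0.133 FPKM, and its IGF1R and IGF1 were at 0. Without it, middle minus early was -0.89 for IGFBP2, short of a call, and hatching minus early was 4.93.

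IGFBP3, the main carrier of IGFs in serum, was almost absent before the late stage. Its highest FPKM was 0.698 in early and 10.4 in middle cells, where 0 of 44 and 2 of 39 cells reached FPKM 1. In late cells it ran from 0 to 34.4 FPKM (median 0.022) with 11 of 52 cells at FPKM 1, and in hatching cells from 0.027 to 276 (median 26.3) with 18 of 26. All 11 late cells were on the NANOG side, and the 19 SOX17-side cells were at 0.530 or less. At hatching it ran from 0.256 to 276 FPKM (median 54.3) on the NANOG side and from 0.027 to 0.545 (median 0.235) on the SOX17 side. Hence 18 of 19 NANOG-side cells were above all SOX17-side cells, and the means differed by 5.08. The remaining NANOG-side cell, at 0.256, had IGFBP2 and IGFBP4 above FPKM 1.

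IGFBP4, which mostly restrains IGF signalling and is cleaved by the protease PAPP-A, was the latest of the set. No early or middle cell reached FPKM 1, with maxima of 0.711 and 0.719. In the late stage 6 of 52 cells did, up to 105.3 FPKM, and all 6 were on the NANOG side. With 0 of 19 late SOX17-side cells at FPKM 1, the exact Clopper-Pearson 95% interval reaches 17.6%, and with 0 of 7 at hatching it reaches 40.96%; these intervals cover the counting error of cells only. At hatching the 19 NANOG-side cells lay between 21.3 and 316 FPKM (median 164), and the 7 SOX17-side cells between 0 and 0.731 (median 0.534). The sides did not overlap and differed by 6.40. For hatching minus late on the NANOG side, IGFBP4 had the largest positive difference of all 9781 genes, 6.05, with IGFBP2 7th at 4.42 and IGFBP3 8th at 4.24. The 6 late cells with IGFBP4 were all among the 21 NANOG-side cells numbered above 22, and 0 of the 12 numbered up to 22 reached FPKM 1 (highest 0.198). The 6 cells are numbered 24 to 40, and the NANOG-side cells numbered 47 to 61 were at 0.220 log2 units of IGFBP4 or less. The part of the numbering was not tested.

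Detection of these genes was nested. Of all 161 cells, 101 reached FPKM 1 for IGFBP2, 31 for IGFBP3 and 25 for IGFBP4. Of the 31 cells with IGFBP3, 30 also had IGFBP2, the exception being 1 middle cell. All 25 cells with IGFBP4 had IGFBP2, and 24 of them had IGFBP3. On the late NANOG side 16 cells had IGFBP2 alone of the 3 genes, 5 had IGFBP2 and IGFBP3, 6 had all 3, and 6 had none. On the hatching NANOG side 18 of 19 had all 3. Of the cells with IGFBP3 and IGFBP4, 18 and 19 were hatching NANOG-side cells, where all 19 had IGFBP2. On the late NANOG side 27 of 33 cells had IGFBP2. Its presence in cells with IGFBP3 or IGFBP4 thus largely follows from these shares.

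**Figure D2:**
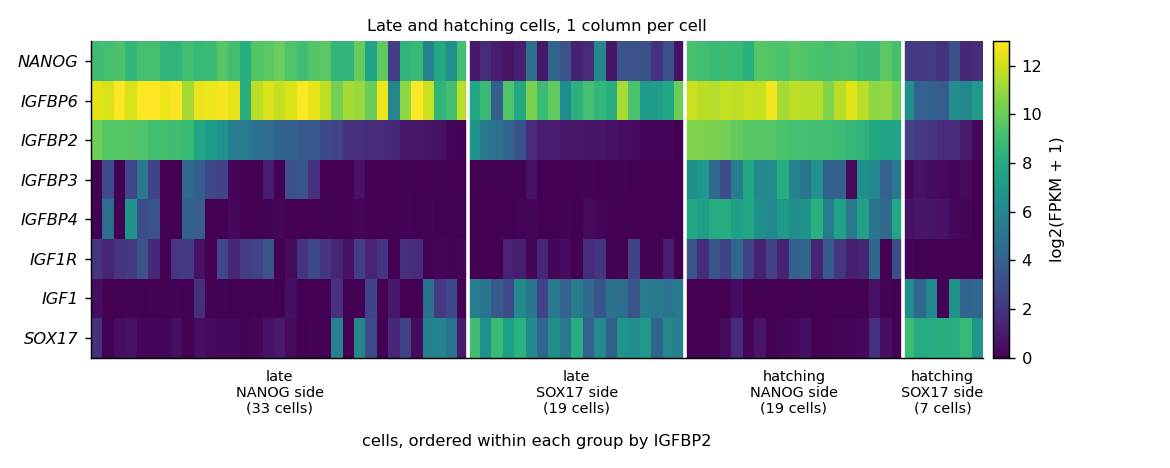
Levels of NANOG, 5 members, IGF1 and SOX17 as log2(FPKM + 1) (colour scale) in late and hatching cells, 1 column per cell, ordered within each group by IGFBP2. Late NANOG-side cells show IGFBP2 over the whole scale with IGFBP3 and IGFBP4 in some of the cells that have it, hatching NANOG-side cells show all 3 in 18 of 19 cells, and IGF1 is seen mainly on the SOX17 side.

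IGFBP3 and IGFBP4 were found only at the NANOG end of the late stage. Among late cells, those with IGFBP4 at FPKM 1 had 8.05 to 9.05 log2 units more NANOG than SOX17, and those with IGFBP3 8.05 to 9.40. Of the 25 late cells with at least 7 units more NANOG, 23 had IGFBP2, 11 had IGFBP3 and 6 had IGFBP4. Of the 20 late cells between that level and 4 units more SOX17, 7 had IGFBP2, 0 had IGFBP3 and 0 had IGFBP4. This range includes SOX17-side cells: only 7 late cells had at least 4 units more SOX17, while 19 were on the SOX17 side. A grouping made without these genes, the IGF list or any marker also divided the late NANOG side. Its 23 cells in the cluster of higher NANOG had a median IGFBP2 of 92.9 FPKM, and the 10 cells that clustered with the SOX17 side had 1.31. All 11 cells with IGFBP3 and all 6 with IGFBP4 were among the 23. IGFBP6 had medians of 6163 and 1155 FPKM in the 23 and the 10 cells. The 10 cells also had a higher median of summed primitive endoderm markers, at 813 against 36.9 FPKM. CDX2, a trophectoderm factor, was higher in them too, at a median of 41.9 against 0.277 FPKM. The trophectoderm markers summed were lower in them, at a median of 3822 against 5167 FPKM.

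**Figure D3:**
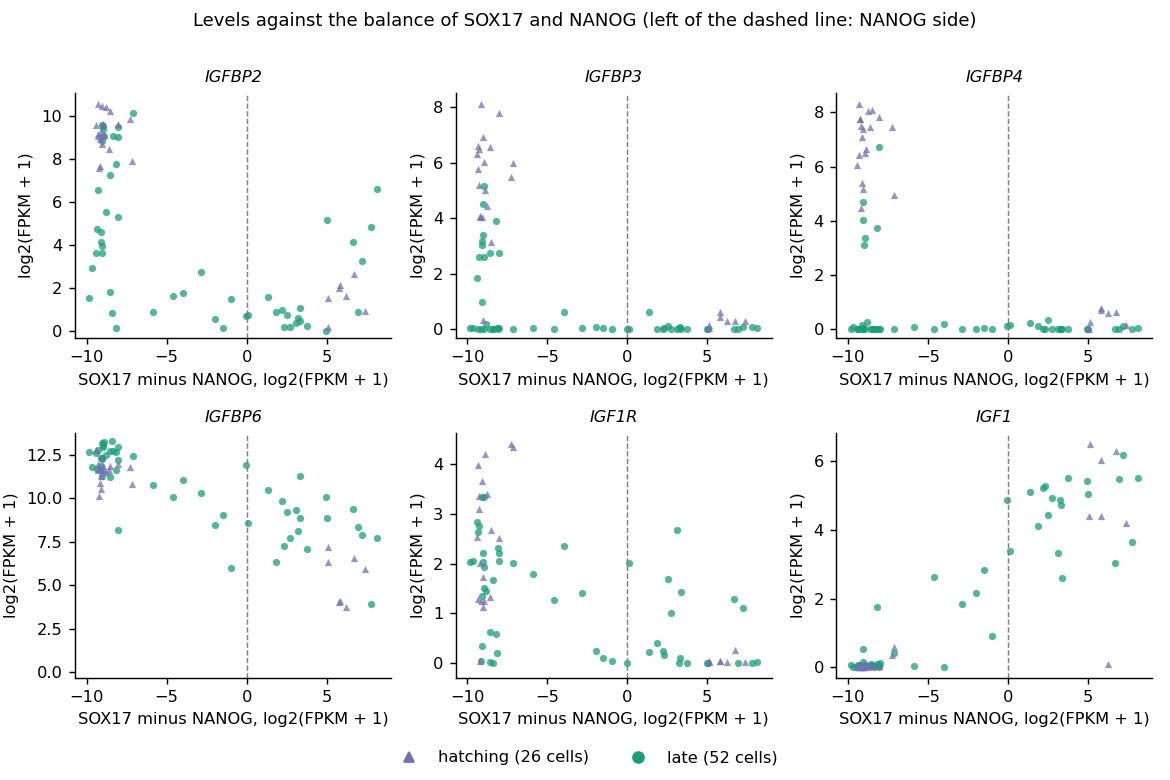
Level of 5 members and IGF1 as log2(FPKM + 1) against SOX17 minus NANOG on the same log2 scale, in hatching cells (triangles) and late cells (circles). Left of the dashed line are NANOG-side cells: IGFBP3 and IGFBP4 are above FPKM 1 only at the far left, IGFBP2 is high at the far left and in some cells at the far right, and IGF1 is high on the right.

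IGFBP5, a matrix-bound member, was rare. It reached FPKM 1 in 5 of 44 early, 6 of 39 middle, 5 of 52 late and 1 of 26 hatching cells, at mean log2 levels of 0.30, 0.33, 0.23 and 0.13. In the early stage all 5 of these cells also had IGFBP2. The single hatching cell, on the SOX17 side, held the highest value of the series, 8.81 FPKM from 544 reads, and no hatching NANOG-side cell exceeded 0.090 FPKM. In a reference annotation of another build (RefSeq, T2T-MMU8v2.0), IGFBP2 and IGFBP5 are neighbours with no gene starting between them, as are IGFBP1 and IGFBP3. Over all stages IGFBP5 reached FPKM 1 in 13 of 101 cells with IGFBP2 and in 4 of 60 without it.

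IGF1R, the signalling receptor, was low throughout. It reached FPKM 1 in 15 of 44 early, 12 of 39 middle, 28 of 52 late and 18 of 26 hatching cells, and its mean log2 level was 0.83, 0.88, 1.17 and 1.87. At hatching it ran from 0.021 to 20.4 FPKM (median 4.77) on the NANOG side and from 0.010 to 0.187 (median 0.018, at most 19 reads) on the SOX17 side. All SOX17-side cells were exceeded by 18 of 19 NANOG-side cells, and the means differed by 2.48. In late cells 22 of 33 NANOG-side and 6 of 19 SOX17-side cells reached FPKM 1, with means of 1.48 (SD 1.04) and 0.65 (SD 0.82). The difference of 0.83 was short of a call and below the NANOG-side SD.

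Counted over the 8 members, 5 were called higher on the NANOG side than on the SOX17 side at hatching and 0 lower, where 33.7% and 14.2% of the 9781 genes were. Over all 16049 genes, without a limit on mean FPKM, it was 20.9% and 9.43%. The 5 members are all those with a mean FPKM of at least 1. IGFBP3 and IGFBP4 reach that mean through NANOG-side cells, with SOX17-side means at hatching of 0.249 and 0.401 FPKM. Later counts are likewise out of 8 members, beside shares of the 9781 genes. The hatching NANOG side had a median of 12.8 M recovered reads and 6940 genes at FPKM 1, against 9.27 M and 5680 on the SOX17 side, and the median difference of all genes was 0.45. With median-of-ratios scaling that median was 0.15, and the 5 members differed by 2.33 to 7.16. All 7 hatching SOX17-side cells are numbered 1 to 18, a range shared by 5 NANOG-side cells. Within this range the differences were 7.22 for IGFBP2, 4.82 for IGFBP3, 5.72 for IGFBP4, 5.98 for IGFBP6 and 2.36 for IGF1R. In late cells 3 members were called higher (7.89% of all genes) and 0 lower (7.69%). A call rests on the means and takes no account of the spread between cells.

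Between stages, hatching minus early had 4 of 8 members higher (11.3% of all genes) and 0 lower (16.2%), namely IGFBP4 at 5.11, IGFBP2 at 4.77, IGFBP3 at 3.997 and IGF1R at 1.04. With the 12 hatching cells numbered 1 to 18 these were 2.82, 2.20, 2.29 and 0.20, and IGFBP6 was -2.06. With the 14 above 18, IGFBP6 was 1.65. All 7 SOX17-side hatching cells are among the 12 and none among the 14, so that the ranges differ in sides. On the NANOG side alone, means in the 5 cells up to 18 and the 14 above were 11.40 and 11.61 for IGFBP6. For IGFBP4 they were 6.18 and 7.10. Middle minus early had 0 higher (3.06%) and 2 lower (3.61%), IGFBP6 and IGFBP2. Late minus middle had 2 higher (3.95%) and 0 lower (5.82%), both IGFBP6 and IGFBP2 at 2.33. Hatching minus late had 3 higher (7.26%) and 0 lower (9.87%), and on the NANOG side alone 4 higher (9.41%) and 0 lower (8.02%). There IGF1R differed by 1.06.

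Low values on the hatching SOX17 side were of similar proportion for several genes that are high on the NANOG side. The mean FPKM on the SOX17 side was 0.34% of that on the NANOG side for IGFBP2, 0.35% for IGFBP3, 0.27% for IGFBP4 and 0.56% for IGF1R. For the epiblast factors it was 0.62% for NANOG and 0.31% for SOX2. IGFBP6 stood higher at 1.85% and POU5F1 at 2.87%. Whether the small values come from the cells themselves or from reads of other libraries was not tested. Whether the 5 of 7 SOX17-side cells with IGFBP2 at FPKM 1 express it was likewise not tested. They are included wherever cells at FPKM 1 are counted.

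The ligand gene IGF1 lay opposite to the members. No early cell and 2 of 39 middle cells reached FPKM 1, with a highest value of 1.13 FPKM. In late cells it ran from 0 to 28.4 FPKM (median 0.045) on the NANOG side and from 5.05 to 71.8 (median 29.5) on the SOX17 side. FPKM 1 was reached by 6 of 33 NANOG-side cells and by all 19 SOX17-side cells. At hatching it was at most 0.502 FPKM in the 19 NANOG-side cells, while the SOX17-side cells had 78.3, 90.3, 20.4, 17.4, 0.062, 65.3 and 20.1 FPKM. The cell at 0.062, number 11, had SOX17 at 279 FPKM and the lowest IGFBP6 of the stage. The NANOG side minus SOX17 side difference was -4.05 in late cells, the 15th lowest of all genes, and -4.49 at hatching. IGF1 was found in 17 of the 20 late cells between 7 log2 units more NANOG and 4 more SOX17, where IGFBP3 and IGFBP4 were not. Those 20 cells include SOX17-side cells.

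Over all stages, few cells had both ligand and receptor at FPKM 1. Of 33 cells with IGF1 and 73 with IGF1R at FPKM 1, 8 had both, and all 8 were late cells, 6 of them on the SOX17 side. On that side all 19 late cells had IGF1, so that each of the 6 cells with IGF1R had both. At hatching 6 cells had IGF1, 18 had IGF1R and 0 had both. IGF1 and IGFBP4 were found together in 1 late NANOG-side cell. IGF2, the other ligand gene, reached FPKM 1 in 4 early, 2 middle, 0 late and 0 hatching cells. Its highest value was 17.4 FPKM, in a middle cell.

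The other receptors differed in direction. IGF2R, which binds IGF2 and directs it to lysosomes, had a hatching mean of 1.31 (SD 1.29) on the NANOG side and 3.22 (SD 1.66) on the SOX17 side, a difference of -1.91. It was -0.86 in late cells. INSR, the insulin receptor, had 2.61 (SD 1.14) on the NANOG side and 1.42 (SD 1.41) on the SOX17 side at hatching, a difference of 1.19 with overlapping cells. INSR reached FPKM 1 in 18 of 19 and 4 of 7 cells.

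**Figure D4:**
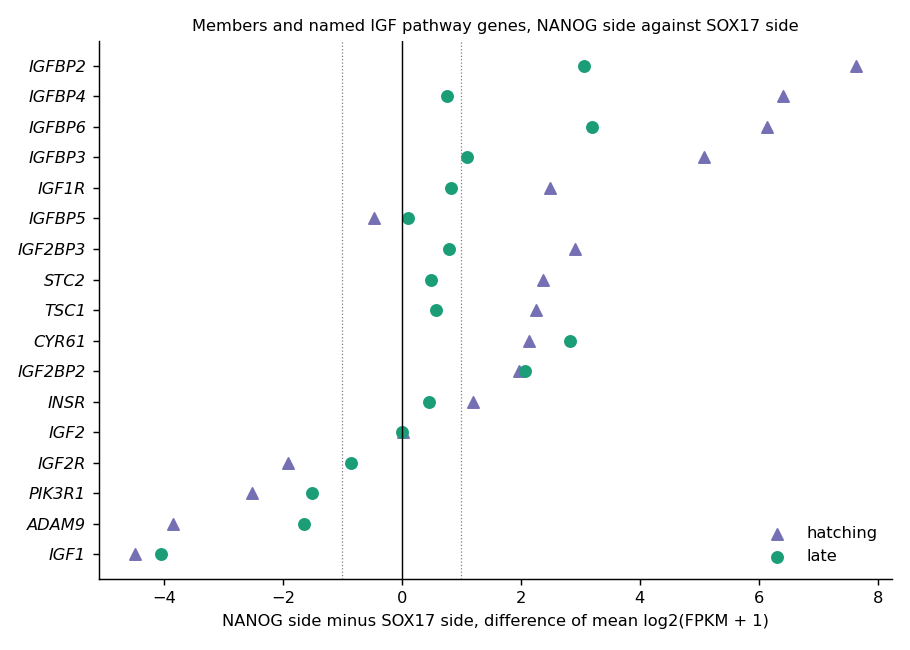
Difference of mean log2(FPKM + 1), NANOG side minus SOX17 side, for 6 members and 11 IGF pathway genes in hatching cells (triangles) and late cells (circles). Dotted lines mark 1 log2 unit in either direction: IGFBP2, IGFBP4, IGFBP6 and IGFBP3 lie at 5.08 or more at hatching, and IGF1 at -4.49.

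A list of 48 genes of the IGF pathway that are not members (ligands, other receptors, adaptors, PI3K-AKT-TOR genes, binding-protein proteases, IGF2 mRNA-binding proteins and IGFBP-related genes) gave the surroundings. Of these, 45 have a row and 27 reached a mean FPKM of 1. At hatching, 8 of the 27 (29.6%) were higher on the NANOG side and 5 (18.5%) lower, beside 33.7% and 14.2% of all genes, with a list median of 0.52 beside 0.45. In late cells 2 (7.41%) were higher and 4 (14.8%) lower, beside 7.89% and 7.69% of all genes, with medians of -0.06 and 0.01. For hatching minus early, 6 (22.2%) were higher and 1 (3.7%) lower, beside 11.3% and 16.2% of all genes, with medians of 0.53 and -0.12. With 27 genes, 1 gene is 3.7% of the list.

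Among the proteases and their partners, ADAM9, a membrane metalloprotease, was lower on the NANOG side by 3.85 at hatching, with a median of 0.207 FPKM there against 46.3 FPKM on the SOX17 side, and by 1.65 in late cells. STC2, a secreted inhibitor of PAPP-A, which cleaves IGFBP4, was at 1 FPKM or more in 12 of 19 hatching NANOG-side cells and 0 of 7 SOX17-side cells, a difference of 2.37. The mRNA-binding proteins IGF2BP2 and IGF2BP3 were higher on the NANOG side by 1.96 and 2.91 at hatching and by 2.08 and 0.80 in late cells. CYR61, a matrix-associated protein related to the IGFBPs, was higher there by 2.13 at hatching and 2.83 in late cells. In the PI3K-AKT-TOR group, the regulatory subunit PIK3R1 was lower on the NANOG side (-2.51 at hatching, -1.51 in late cells). TSC1, which restrains TOR, was higher (2.25 at hatching, 0.57 in late cells). The other 13 of the 15 genes of this group stayed under 2 log2 units in each of the 8 contrasts between stages or sides.

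The genes whose levels over all 161 cells were most like a member's were taken as the 5 with the highest Pearson r among 10012 genes. For IGFBP3 the nearest was IGFBP4, and for IGFBP4 the nearest was IGFBP3 (r = 0.90), followed for both by BCL11A, C1orf21, LRRN1 and PTPLA at r = 0.80 to 0.87. Within the hatching NANOG side alone, IGFBP3 and IGFBP4 had r = 0.36 and rho = 0.21 (n = 19), against r = 0.67 and rho = 0.50 on the late NANOG side (n = 33). For IGFBP2 the nearest were SSB, an RNA-binding protein, at r = 0.82, then FXYD5, C1orf21, LRRN1 and TTC26 at r = 0.77 to 0.78. On the late NANOG side IGFBP2 and SSB still had r = 0.84, and on the hatching NANOG side r = -0.14.

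IGFBP6 had other neighbours. DPPA5 and KHDC3L (r = 0.73 each), OOEP (r = 0.67), TDGF1, a NODAL co-receptor (r = 0.65), and PEBP1 (r = 0.64) came nearest. DPPA5, KHDC3L and OOEP belong to 1 family of KH-domain proteins of the oocyte and early embryo. DPPA5 had mean log2 levels of 11.57 on the hatching NANOG side and 5.18 on the SOX17 side, close to the 11.56 and 5.41 of IGFBP6. For IGF1R the highest r was lower, 0.53 for the ligand gene WNT5B, with TBC1D30, ADAM18, SEPT6 and T at 0.50 to 0.52. These correlations share libraries, depth and the difference between the sides, and carry no p-value.

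Against NANOG within a side, IGFBP6 had r = 0.71, rho = 0.39 and r = 0.60 without the 2 farthest cells on the late NANOG side (n = 33). Late cell 13 had both the lowest NANOG (4.40 FPKM) and the lowest IGFBP6 (62.1 FPKM) of that side. IGF1R had r = 0.48, rho = 0.47 and r = 0.40 there. On the hatching NANOG side IGFBP4 had r = -0.42, rho = -0.45 and r = -0.31 against NANOG (n = 19). IGFBP2 had r = -0.29 and IGFBP6 r = -0.03 there. Within the 19 hatching NANOG-side cells IGFBP4, IGFBP2 and IGFBP6 were thus not higher where NANOG was higher. NANOG varied little among these cells, with an SD of 0.35 log2 units against 1.43 on the late NANOG side. This limits what the correlations there can show.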

How the data were processed

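Per the labels' protocols, single cells were lysed, first-strand cDNA was made and PCR-amplified, and libraries were read as 150-bp pairs. The authors deposited 1 table of FPKM for 16049 gene symbols and 161 cells; every column matched a cell's title. HTSeq, DESeq2, FastQC and TopHat2 (2.1.0) appear in the submitters' processing notes without a stated role; the genome build is not given in the sources used here. No count table was used. Whole reads were recovered from the FPKM steps for 13773 of the 13857 genes above 0 in at least 2 cells (relative tolerance 2e-06, absolute 1e-05) to describe depth. PCR reads carry no molecular identifiers.

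Values were used as log2(FPKM + 1), and shares of cells at FPKM of at least 1 carry exact Clopper-Pearson 95% intervals. The background is the 9781 genes with a mean FPKM of at least 1. With 1 sample per stage no p-value is given. The members, lists, markers and the naming rule were chosen with earlier results of these data known. The rule names all members, the 5 genes most correlated with each member found in 20% of the cells of some stage, IGF1, IGF2, IGF2R, INSR, and pathway genes past 2 log2 units; early cell 9 and other single cells were picked out after their values were seen. IRS2, PAPPA and CTGF of the pathway list have no row under that symbol, and protein or promoter sequences were not used here. The alternative grouping used 2 Ward clusters on 10 principal components of 1000 variable genes. Doublets were not called, since cells were picked singly. Computation used scipy 1.17.1, numpy 2.4.6, scikit-learn 1.9.0, pandas 2.3.3 and matplotlib 3.10.9 under Python 3.11.15. The read recovery and the differences of means were tested on simulated data, and the other steps were not.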

Additional observations from a re-analysis of the deposited data

How the results depend on the processing

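Over the processing alternatives, 362 of 384 member differences moved by less than 1 SD between cells, 21 moved by more and 1 changed sign: IGFBP2 for middle minus early was 0.63 against the early cells numbered 29 to 48. Of 144 counts of called members, 135 stayed within 1.5 times the main count. A pseudocount of 0.1 gave 5 members higher on the late NANOG side (3 at a pseudocount of 1), and 2 higher and 2 lower for hatching minus late on the SOX17 side (0 and 1). With the SOX17 side set by SOX17 at FPKM of at least 1, 3 were higher in that contrast. Middle minus early had 1 member lower (2 in the main result) at a pseudocount of 10, without the 7 cells titled HSM or HSL, without early cell 9, and against early cells numbered 29 to 48. Hatching minus early had 1 lower (0 in the main result) with hatching cells numbered 1 to 18, which include all 7 SOX17-side cells of that stage. The alternatives on HSM and HSL cells, on early cells and on hatching NANOG-side cells were chosen after seeing the data. No paired analysis was possible because no test was made and a title number names a cell, not an embryo. The depth limits low values: at the median of 2 reads, IGF1R on the hatching SOX17 side cannot be told from 0. Of 48 shares of cells, 25 moved outside their interval when the threshold was set to above 0 or to FPKM 5.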
